A study of Homo sapiens with 29 samples.

Results

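The genes described are 10 members of the AP-1 transcription factor family and of the immediate early genes, FOS, FOSL1, FOSL2, JUN, JUNB, JUND, ATF3, EGR1, IER3 and DUSP1, out of 35580 genes whose transcripts were summed. They were chosen by name, and their levels were read in all 29 libraries. All 10 were found, and 8 of them had a mean of at least 10 TPM (a relative transcript abundance that allows for transcript length and gives every library the same total) and entered the fit across 9241 genes. FOS and EGR1 were below that mean and were tested on their own.

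RNA was sequenced from 10 lines of PC9, a lung adenocarcinoma cell line whose growth depends on a mutated EGFR. The parental line (PAR) carries its own AXL, a receptor tyrosine kinase, and the knockout (KO) was made from it with CRISPR-Cas9 and sorted. Into knockout cells a lentivirus brought AXL back, either unaltered (WT), without kinase activity (KD), or with phenylalanine in place of 1 tyrosine (Y634F, Y643F, Y698F, Y726F, Y750F or Y821F). These 8 lines are each 1 transduced population in which only a fraction of the cells carries the receptor. Dishes seeded with 300000 cells were left untreated, or kept for 24 h with 1 μM of the EGFR inhibitor erlotinib (E), to which AF154, an antibody that activates AXL, was added at 300 ng/mL in a further set (EA). There were 10 untreated libraries, 10 with E and 9 with EA, and KO with EA was not analysed here. Each line and treatment had 1 library, so the lines served as replicates of a treatment, and no single line has an error of its own. The lines are not independent, since 9 of them are the knockout or were made from it. A p-value over lines thus measures how alike related lines were. TPM keeps no depth, and the number of reads behind a value is therefore unknown. In bulk RNA, fewer cells expressing a gene and less RNA per cell cannot be told apart.

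AXL was lowest in the KO libraries, at 92.4 and 79.3 TPM, and at least 217 TPM in the other 27. The epithelial markers EPCAM, CDH1, KRT8, KRT18 and KRT19 were present throughout, with EPCAM at no less than 286 TPM. Of 4 markers of lung alveolar cells, NKX2-1 did not exceed 0.354 TPM, SFTPB 1.09 TPM and SFTPC 1.97 TPM in any library, and NAPSA had a median of 1.96 TPM and reached 5.32 TPM. Of 5 markers of other cell types, PTPRC of leukocytes reached 1.47 TPM, DCN of fibroblasts 1.99 TPM and PECAM1 of endothelial cells 9.60 TPM. The other 2 were present in every library, COL1A1 of fibroblasts between 15.3 and 70.9 TPM and CD68 of macrophages between 27.8 and 68.1 TPM.

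AP-1 is a dimer of a JUN protein with a FOS, JUN or ATF partner that binds short DNA elements in promoters and enhancers. FOS proteins cannot pair with each other, so the set of JUN and FOS proteins in a cell decides which dimers can form. Immediate early genes need no new protein to be transcribed and respond within minutes to growth factors. In EGFR-driven tumor cells, ERK phosphorylates the ternary complex factors that sit with SRF on the FOS and EGR1 promoters, and it also stabilizes the FOSL1 protein, while JNK phosphorylates JUN. DUSP1 removes the phosphates from MAP kinases and is itself induced by their activity.

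The sequences upstream of EGR1, JUNB, JUND and DUSP1 are shown because their windows lie outside the transcripts that GENCODE gives these genes, and not by how the genes changed. Each is the 250 bases before the RefSeq transcription start (GRCh38.p14), 5′ to 3′ on the strand of the gene, with matches in capitals. The motifs searched on both strands were the CArG box (bound by SRF), TGANTCA (bound by FOS and JUN dimers), TGACNTCA (bound by ATF, CREB and some JUN dimers), GCGNGGGCG (bound by EGR1) and TATAAA (the TATA box). The marked matches do not overlap one another.
EGR1, chr5:138465229-138465478, plus strand: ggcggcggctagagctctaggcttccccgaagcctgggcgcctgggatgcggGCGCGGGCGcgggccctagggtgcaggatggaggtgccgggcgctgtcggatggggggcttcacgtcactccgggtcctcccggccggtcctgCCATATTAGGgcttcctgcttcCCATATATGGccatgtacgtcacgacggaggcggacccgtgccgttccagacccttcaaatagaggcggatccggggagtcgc
JUNB, chr19:12791236-12791485, plus strand: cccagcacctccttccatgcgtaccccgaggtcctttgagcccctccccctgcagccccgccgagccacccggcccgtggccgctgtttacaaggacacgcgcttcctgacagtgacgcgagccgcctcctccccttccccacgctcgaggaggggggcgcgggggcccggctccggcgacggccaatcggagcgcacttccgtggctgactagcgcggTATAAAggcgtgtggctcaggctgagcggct
JUND, chr19:18281623-18281872, minus strand: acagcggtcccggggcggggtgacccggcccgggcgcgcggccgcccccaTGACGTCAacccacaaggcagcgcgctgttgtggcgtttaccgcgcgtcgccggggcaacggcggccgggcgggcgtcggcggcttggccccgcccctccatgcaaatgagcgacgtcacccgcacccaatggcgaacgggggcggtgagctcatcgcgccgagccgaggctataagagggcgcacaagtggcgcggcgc
DUSP1, chr5:172771196-172771445, minus strand: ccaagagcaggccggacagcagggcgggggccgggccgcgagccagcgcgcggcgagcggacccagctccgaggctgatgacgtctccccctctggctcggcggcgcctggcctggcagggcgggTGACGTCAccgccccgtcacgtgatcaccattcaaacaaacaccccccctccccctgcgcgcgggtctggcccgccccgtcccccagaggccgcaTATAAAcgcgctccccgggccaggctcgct

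The EGR1 window held 2 CArG boxes, 105 to 96 and 83 to 74 bases before the start, and 1 GCGNGGGCG, 198 to 190 bases before it. A CArG box was found in 1.16% of the 35116 RefSeq windows of this length and GCGNGGGCG in 8.41%. DUSP1 held TGACNTCA 125 to 118 bases before the start and TATAAA 30 to 25 bases before it. JUND held TGACNTCA 200 to 193 bases before the start, and JUNB held TATAAA 31 to 26 bases before it. TGACNTCA stood in 6.87% of all windows, TATAAA in 10.7% and TGANTCA in 6.57%, and none of the 4 windows held TGANTCA. RefSeq windows were found for 8 of the 10 genes. Among those not shown, JUN held TGACNTCA 67 to 60 bases before its RefSeq start and FOS held TATAAA 33 to 28 bases before it, with no CArG box in the window. ATF3 has 2 windows, 1 with TGACNTCA at 123 to 116 and 1 with TATAAA at 230 to 225 bases before the start, and FOSL2 held none of the motifs. Genes that fell and genes that rose with E thus shared motifs.

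The first comparison was E against untreated in all 10 lines, which asks what EGFR inhibition does to these genes. FOSL1, JUN and IER3 fell, JUNB, JUND, ATF3, DUSP1 and FOSL2 rose, and FOS and EGR1, both scarce before treatment, fell as well. Values were log2(TPM + 1), and limma with the line as a block was applied to all 9241 genes with Benjamini-Hochberg adjustment. Of the 8 genes in the fit, 5 passed an adjusted p of 0.05 as higher and 3 as lower. Over all genes tested, 36.6% were higher and 42.6% lower, so a call by itself does not set these genes apart. The median log2 change of the 8 was 0.49, beside -0.04 for all genes tested. The TPM ranges with and without E did not overlap for 7 of the 8, against 36.5% of all genes.

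**Figure D1:**
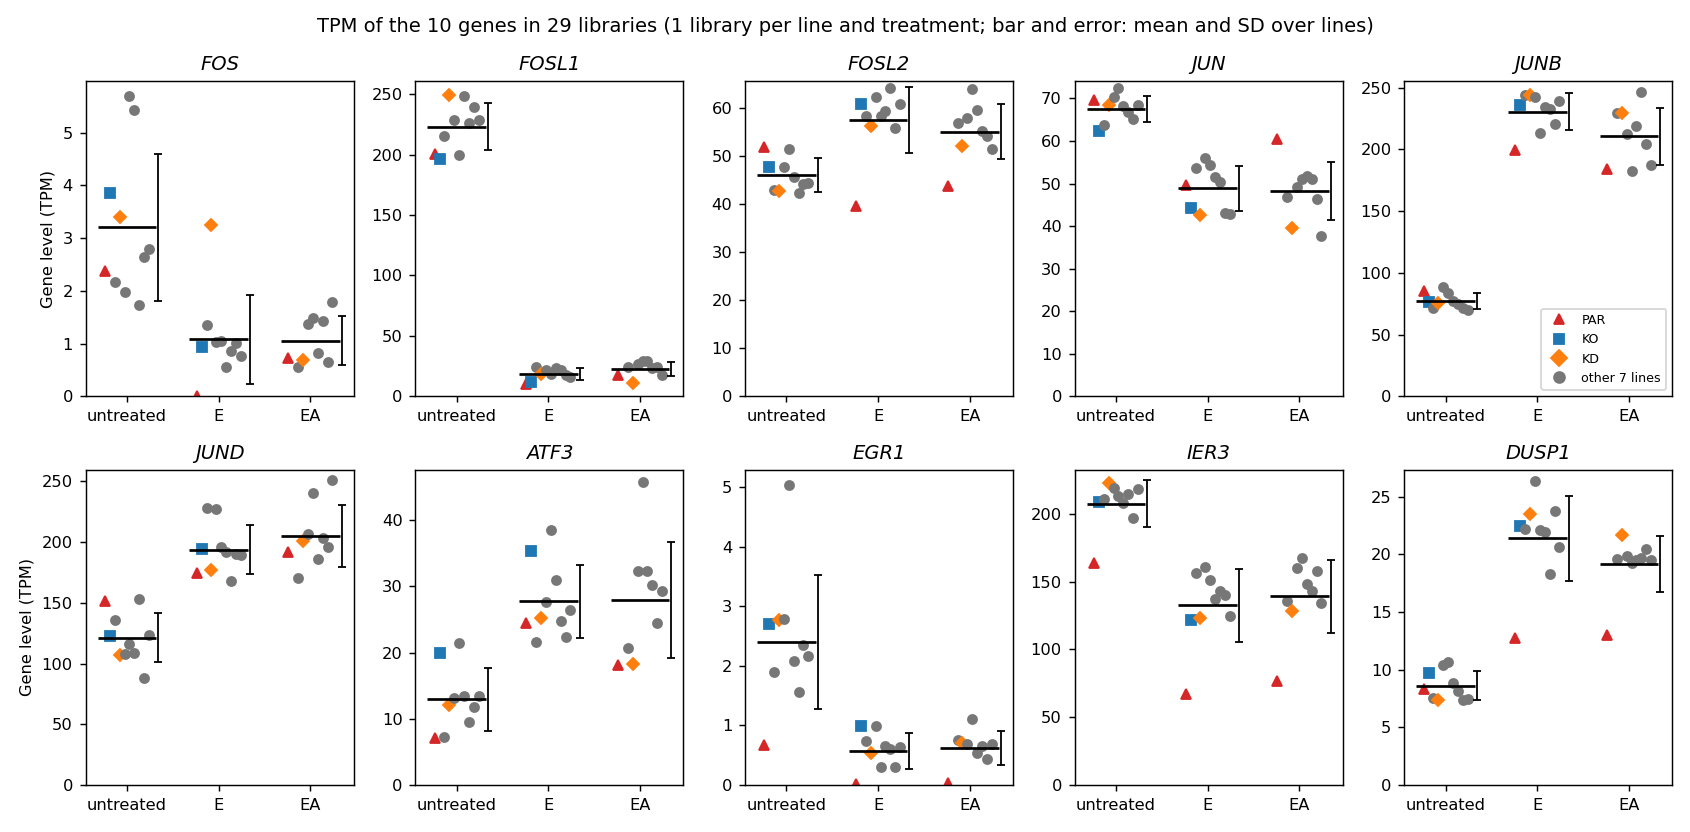
Gene level in TPM (vertical axis, linear, from 0) of each of the 10 genes in the 10 untreated, 10 E and 9 EA libraries. Each point is 1 line, the horizontal bar is the mean and the error bar the SD over lines. FOSL1 drops from a mean of 223 TPM to 18.3 TPM with E, JUNB rises from 77.4 to 231 TPM, and the PAR triangle lies below the other lines for IER3 in all 3 treatments.

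FOSL1 encodes FRA-1, a FOS protein without a transactivation domain of its own (ENSG00000175592, chromosome 11 from 65892049 to 65900573 in GENCODE release 29, GRCh38). Untreated, its lowest level was 196 TPM in KO, its median 227 TPM and its highest 249 TPM in KD. With E it lay between 9.92 TPM in PAR and 23.9 TPM in WT, with a median of 18.4 TPM. Every library with E was thus far below every untreated one. The mean log2 change was -3.58 (SE 0.089, limma adjusted p = 1.03e-13), the fall was seen in 10 of 10 lines, and by its size FOSL1 stood 5th among the 9241 genes. In the order of all 35580 genes by mean TPM it went from 581 untreated to 6913 with E.

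FOSL2 encodes FRA-2, the closest relative of FRA-1 (ENSG00000075426, chromosome 2 from 28392448 to 28417312). Its untreated levels ran from 42.3 TPM in Y726F over a median of 44.9 TPM to 51.9 TPM in PAR. With E the lowest was 39.5 TPM in PAR, the median 58.8 TPM and the highest 64.1 TPM in Y726F. The 9 other lines rose and PAR fell, so that the 2 ranges overlap through PAR alone. The log2 change was 0.31 (SE 0.073, limma adjusted p = 0.00131), higher in 9 of 10 lines, and 0.38 without PAR.

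FOS, the founding member of the family (ENSG00000170345, chromosome 14 from 75278774 to 75282230), was scarce. It lay between 1.73 TPM in Y726F and 5.70 TPM in Y643F untreated, with a median of 2.72 TPM. With E the median was 0.970 TPM, the highest value 3.26 TPM in KD, and FOS was listed at 0 in PAR. It was lower with E in 10 of 10 lines, by 1.04 ± 0.66 on the log2(TPM + 1) scale (SD, n = 10), with a 2-sided exact sign-flip p of 0.00195, unadjusted and the smallest that 10 lines allow. KD differed least, at 3.40 TPM untreated and 3.26 TPM with E, and the 2 ranges overlap through this line. Of that 3.26 TPM, 2.04 TPM stood on the transcript FOS-210, which was at 0 TPM in every untreated and EA library. FOS-201 alone was at no less than 1.30 TPM untreated and no more than 0.963 TPM with E, without overlap.

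Of the JUN proteins, JUN is the strong activator (ENSG00000177606, chromosome 1 from 58780788 to 58784327). It ranged from 62.4 TPM in KO to 72.4 TPM in Y643F untreated, with a median of 68.4 TPM, and from 42.6 TPM in KD to 56.1 TPM in Y634F with E, with a median of 50.1 TPM. The ranges did not meet, and 10 of 10 lines were lower. Its log2 change was -0.46 (SE 0.045, limma adjusted p = 1.98e-07), the smallest fall among the members in the fit.

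JUNB, a weaker activator that can oppose JUN (ENSG00000171223, chromosome 19 from 12791496 to 12793315), went the other way. Its lowest, median and highest untreated levels were 69.8 TPM in Y821F, 76.1 TPM and 88.5 TPM in Y634F. With E they were 199 TPM in PAR, 235 TPM and 244 TPM in WT. The lowest library with E was therefore above every untreated library. The mean was 2.98 times as high with E, with a log2 change of 1.57 (SE 0.051, limma adjusted p = 1.00e-12) and a rise in 10 of 10 lines.

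JUND, whose RNA is usually present without stimulation (ENSG00000130522, chromosome 19 from 18279760 to 18281622), was the most variable of the 3 JUN genes before treatment. Untreated levels ran from 88.3 TPM in Y750F to 153 TPM in Y726F with a median of 119 TPM, and levels with E from 168 TPM in Y726F to 228 TPM in WT with a median of 191 TPM. All 10 lines rose, although the line highest before treatment was the lowest after it. The log2 change was 0.68 (SE 0.082, limma adjusted p = 2.29e-06).

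The make-up of the 2 families shifted with these changes. FOSL1 held 81.4% ± 2.33 (SD, n = 10) of the summed TPM of FOS, FOSB, FOSL1 and FOSL2 in untreated lines and 23.0% ± 3.62 with E. FOSL2 went from 16.9% ± 2.14 to 73.4% ± 4.07, while FOS and FOSB with E had mean shares of 1.33% and 2.32%. The summed level of the FOS family fell from 274 ± 18.1 to 78.7 ± 10.9 TPM.

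Within the JUN family, JUNB rose from 29.2% ± 2.54 to 48.8% ± 2.36 of the summed TPM and JUN went from 25.5% ± 2.15 to 10.3% ± 1.04. JUND stayed the other large part, at 45.3% ± 4.36 untreated and 40.9% ± 2.001 with E. The family sum went from 266 ± 22.5 to 473 ± 31.6 TPM. The JUN family sum divided by the FOS family sum lay between 0.783 and 1.20 over the untreated lines and between 5.09 and 8.38 with E. With EA the ratio was 5.90 ± 0.843 (SD, n = 9), and FOSL1 held 27.8% ± 4.68 of the FOS family. No test was run on shares, which follow from the levels above.

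**Figure D2:**
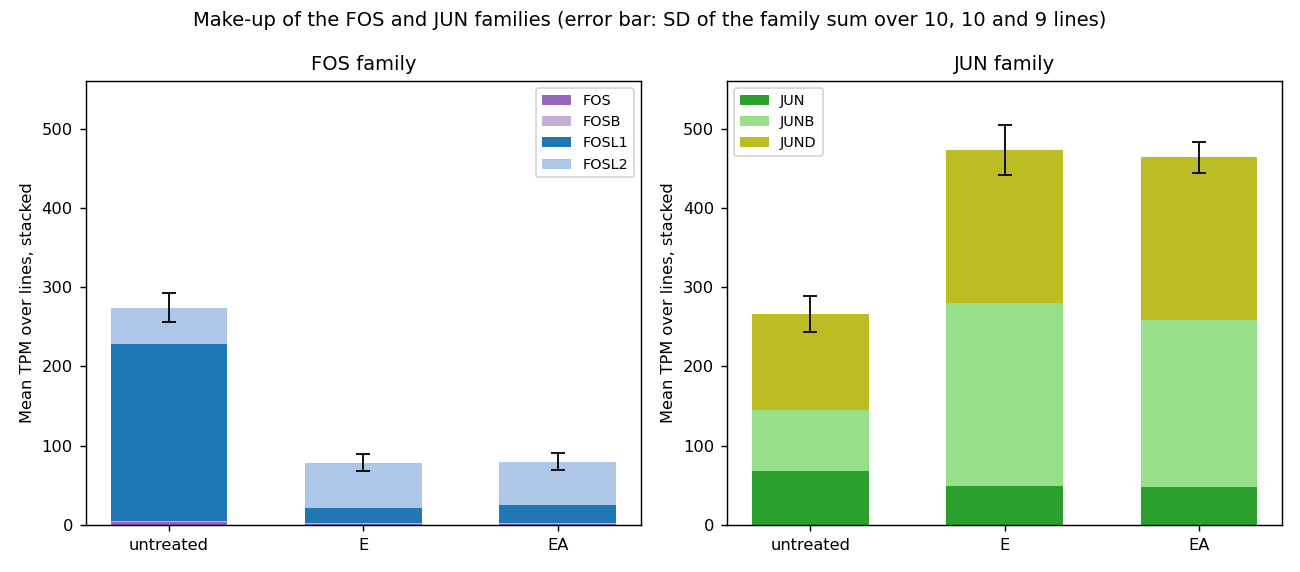
Mean TPM over lines (vertical axis, stacked from 0) of the FOS family and of the JUN family in untreated, E and EA libraries, with the SD of the family sum. The FOS family shrinks from 274 to 78.7 TPM with E and FOSL2 becomes its largest part, while the JUN family grows from 266 to 473 TPM, mostly through JUNB and JUND.

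ATF3 (ENSG00000162772, chromosome 1 from 212565334 to 212620777), a stress-induced partner of JUN proteins that can repress transcription, was low before treatment. It lay between 7.13 TPM in PAR and 21.5 TPM in Y643F, with a median of 12.6 TPM, and with E between 21.6 TPM in WT and 38.5 TPM in Y643F, with a median of 25.8 TPM. The ranges came within 0.1 TPM of each other without meeting. The log2 change was 1.10 (SE 0.083, limma adjusted p = 1.06e-08), and 10 of 10 lines rose. Y643F had the highest level in each of the 3 treatments, and KO the next highest untreated and with E, at 19.96 and 35.3 TPM.

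EGR1, a zinc finger factor and a classical readout of ERK activity (ENSG00000120738, chromosome 5 from 138465490 to 138469315), is the gene whose CArG boxes are marked above. It ranged from 0.662 TPM in PAR to 5.04 TPM in Y643F untreated, with a median of 2.26 TPM. With E it ranged from 0.0220 TPM in PAR to 0.987 TPM in Y634F, with a median of 0.612 TPM. All 10 lines were lower with E, by 1.07 ± 0.46 on the log2(TPM + 1) scale (SD, n = 10; 2-sided exact sign-flip p = 0.00195, unadjusted, the smallest possible). The pooled ranges overlap since untreated PAR was as low as treated lines.

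IER3, an early response gene linked to survival and ERK signaling (ENSG00000137331, chromosome 6 from 30743199 to 30744554), lies in the MHC region. In the deposited table nearly all of its TPM, at least 99.8% in every library, stood on transcripts of alternate versions of that region, which were added to the gene here. With the primary assembly alone the gene is listed near 0 and would have dropped out of the fit. Untreated, it ranged from 164 TPM in PAR over a median of 212 TPM to 223 TPM in KD. With E it ranged from 67.2 TPM in PAR over a median of 139 TPM to 161 TPM in Y634F. The highest library with E lay just under the lowest untreated one. Its log2 change was -0.67 (SE 0.069, limma adjusted p = 3.67e-07), and 10 of 10 lines fell.

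DUSP1 (ENSG00000120129, chromosome 5 from 172768090 to 172771195), a MAP kinase phosphatase that acts mostly on p38 and JNK, rose. Untreated levels lay between 7.37 TPM in Y750F and 10.7 TPM in Y643F with a median of 8.25 TPM, and levels with E between 12.8 TPM in PAR and 26.4 TPM in Y634F with a median of 22.1 TPM. No library with E was as low as an untreated one. The log2 change was 1.21 (SE 0.088, limma adjusted p = 7.18e-09), with a rise in 10 of 10 lines.

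**Figure D3:**
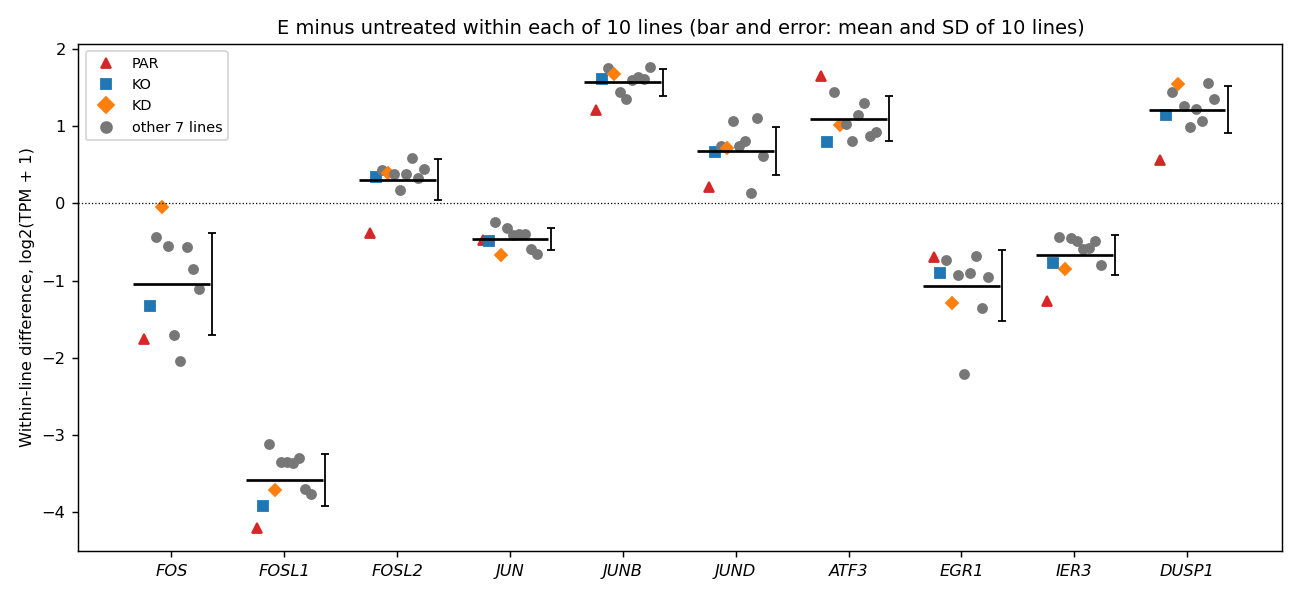
Difference in log2(TPM + 1), E minus untreated, within each line (vertical axis) for the 10 genes. Points are lines, the bar and error bar are the mean and SD of the 10 lines, and the dotted line is no change. FOSL1 lies between -4.20 and -3.12, JUNB between 1.21 and 1.76, and PAR is the only line below 0 for FOSL2.

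The spread between lines differed among the members. The coefficient of variation over the 10 untreated lines was 4.55% for JUN, 7.64% for FOSL2 and 8.86% for FOSL1, against a median of 10.97% over the 9241 genes. It was 16.9% for JUND, 36.7% for ATF3 and 47.1% for EGR1. With E the variation of FOSL1 was 25.6% and that of IER3 20.2%, where the median of all genes was 11.1%. The IER3 value depends strongly on PAR, at 67.2 TPM with E, while the 9 other lines lay between 121 and 161 TPM. It therefore does not describe the spread among those 9 lines, and the variation without PAR was not computed.

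The parental line stood apart from the other lines in several of these genes. It had the lowest of all levels in 15 of 30 sets of 1 gene and 1 treatment and the highest in 2, while Y643F had the highest in 10. No share over all genes is given for these counts, and sets of the same gene are not independent, so they do not set the members apart. Among the 8 genes in the fit, PAR lay outside the range of the other lines for 3 untreated, 5 with E and 5 with EA. For all 9241 genes these shares were 53.8%, 53.3% and 52.1%, so lying outside that range does not set the members apart. PAR differs from the other lines by knockout, sorting and, for 8 of them, transduction, which cannot be told apart here.

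With E, the 5 genes for which PAR was lower than all others were FOSL1, FOSL2, JUNB, IER3 and DUSP1. IER3 showed the widest gap, at 67.2 TPM in PAR and 121 TPM in the next lowest line, KO. By its change from untreated to E, PAR was outside the range of the 9 other lines in 6 of the 8 genes, where 42.6% of all genes were. It changed less than all others in JUNB (1.21 against 1.34 to 1.76) and DUSP1 (0.56 against 0.99 to 1.56). It changed more in FOSL1 (-4.20 against -3.92 to -3.12), IER3 (-1.27 against -0.85 to -0.43) and ATF3 (1.65 against 0.79 to 1.44). FOSL2 fell by 0.38 in PAR, where the others rose by 0.17 to 0.59.

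The PAR library with E also had the highest share of mitochondrial transcripts among the E libraries, 17.4% of TPM against a median of 13.2%. The untreated PAR library had the highest share of its group too, 14.4% against a median of 12.8%, and the highest sum of 5 heat shock genes, 4744 TPM against a median of 3786 TPM. With E that sum was highest in Y698F and not in PAR, at 2239 TPM against a median of 2146 TPM. With EA the mitochondrial share was 16.4% in PAR and 17.4% in Y821F, against a median of 14.35%, and the heat shock sum was highest in PAR, at 2912 TPM. The part of these in the levels of the 10 genes was not tested.

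KO was lowest for untreated FOSL1, at 196 TPM, and for untreated JUN, at 62.4 TPM, in both by a small margin. With E, its FOSL1 level of 12.0 TPM was the lowest after PAR, and the 8 transduced lines lay between 15.9 and 23.9 TPM. KO had 1 library in each of these treatments, and its difference from the other lines was not tested.

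Adding AF154 to E was compared with E alone in the 8 lines other than KO and KD. This asks whether these genes differ after 24 h with the AXL-activating antibody when EGFR is inhibited. A response that had ended before 24 h would not be seen. The paper also reports AXL activation by E without the antibody, so E alone is not a state without AXL activity. FOSL1 was higher in 8 of 8 lines, JUNB lower in 7 of 8 and DUSP1 lower in 6 of 8, but no change passed the adjusted threshold. Of the 8 genes in the limma fit, 0 had an adjusted p under 0.05, and 3 had an unadjusted p under 0.05, as had 20.9% of all genes tested. Over all 9241 genes, 187 (2.02%) were called higher and 47 (0.509%) lower. The share called higher among these calls was 79.9%, and 63.7% when library medians were centred. The total of 234 was between 10 (without Y634F) and 210 (without Y726F) when 1 line was left out, with 56 without PAR, 149 without WT, 24 without Y643F, 68 without Y698F, 76 without Y750F and 100 without Y821F.

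FOSL1 came closest to a call. With EA its levels were 17.2 TPM in PAR, 24.4 in WT, 26.9 in Y634F, 29.2 in Y643F, 29.2 in Y698F, 23.4 in Y726F, 24.4 in Y750F and 17.3 in Y821F. The corresponding levels with E were 9.92, 23.9, 21.5, 18.7, 23.2, 22.0, 17.5 and 15.9 TPM. The rise was largest in PAR, 0.74 on the log2 scale, and smallest in WT, 0.026. Its mean was 0.33 (SE 0.082) with a limma adjusted p of 0.0540, and over the alternatives tried the adjusted p ranged from 0.0382 to 0.462. The level with EA remained 9.31-fold below the untreated mean of these lines.

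KD, in which the receptor lacks kinase activity, did the opposite. FOSL1 stood at 18.1 TPM in the E library and 11.1 TPM in the EA library, a log2 difference of -0.65, and no line had a lower level with EA. Genes for which all 8 lines moved one way and KD the other made up 2.25% of the 9241 tested. The KD difference lay outside the range of the 8 lines in 2 of the 8 genes, FOSL1 and ATF3 (-0.44 against -0.42 to 0.28), and in 18.9% of all genes. KD is 1 pair of libraries, and its difference from the other lines was not tested. When KD was included with the 8 lines, the mean change of FOSL1 was 0.22 with a limma adjusted p of 0.278.

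**Figure D4:**
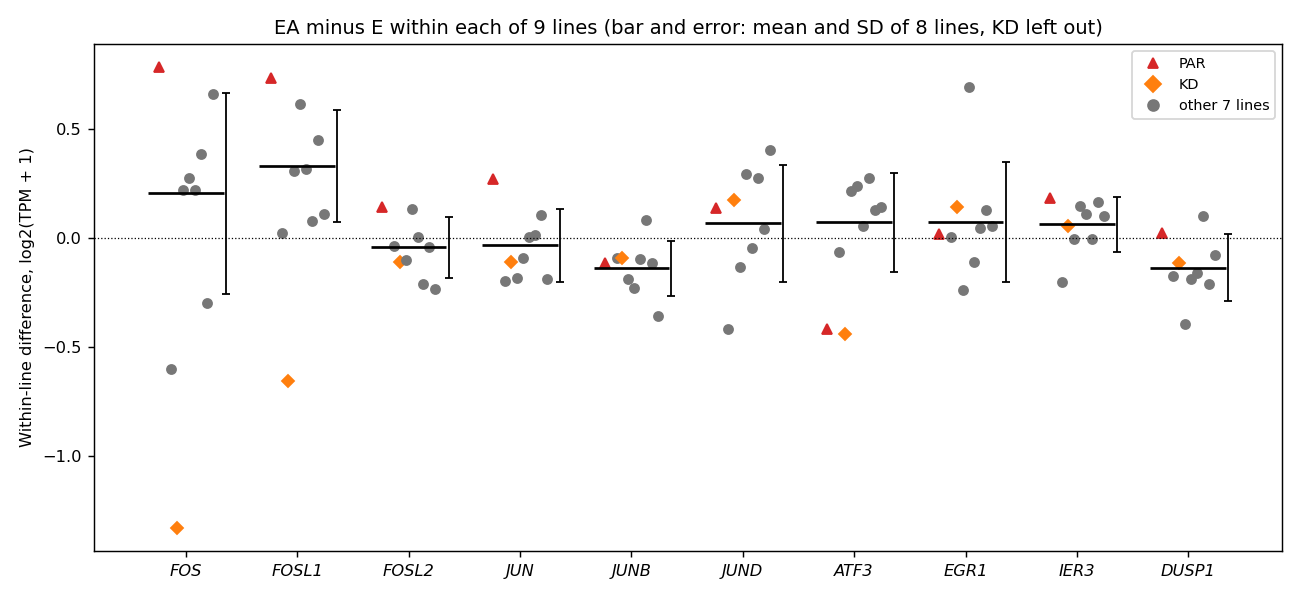
Difference in log2(TPM + 1), EA minus E, within each line (vertical axis) for the 10 genes. Points are lines, the bar and error bar are the mean and SD of 8 lines without KD, and the dotted line is no change. For FOSL1 the 8 lines lie between 0.026 and 0.74 and KD lies at -0.65.

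JUNB lay between 182 TPM in Y643F and 247 TPM in Y726F over the 9 EA libraries, with a median of 213 TPM. Its change from E was -0.14 (SE 0.043, limma adjusted p = 0.101), and Y726F was the line that rose. DUSP1 had a change of -0.13 (SE 0.060, limma adjusted p = 0.229) and levels from 13.001 TPM in PAR to 21.6 TPM in KD, with a median of 19.6 TPM. Apart from PAR, the EA levels of DUSP1 began at 19.2 TPM, in Y643F.

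The other members in the fit had mean changes smaller than their SD between lines. With EA, FOSL2 lay between 43.8 TPM in PAR and 63.96 TPM in Y643F (median 55.3), JUN between 37.6 TPM in Y821F and 60.4 TPM in PAR (median 49.3), and JUND between 170.4 TPM in WT and 251 TPM in Y821F (median 201). ATF3 lay between 18.1 TPM in PAR and 45.7 TPM in Y643F (median 29.3), and IER3 between 76.6 TPM in PAR and 168 TPM in Y643F (median 143). All 5 overlapped widely with their E levels. The mean log2 change was -0.04 (SE 0.050) for FOSL2, -0.03 (SE 0.056) for JUN, 0.07 (SE 0.076) for JUND, 0.07 (SE 0.072) for ATF3 and 0.06 (SE 0.044) for IER3. Their limma adjusted p-values lay between 0.428 and 0.777. JUN in PAR was 49.8 TPM with E and 60.4 TPM with EA. FOS and EGR1 were higher with EA in 6 of 8 lines each, with 2-sided exact sign-flip p-values of 0.25 and 0.594, both unadjusted (the smallest possible with 8 lines is 0.00781). Small changes in these 2 genes cannot be judged at levels near 1 TPM.

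EA against untreated was computed in the same 8 lines and shares its untreated libraries with the first comparison. Again 5 members were higher and 3 lower, where 33.1% of all genes were higher and 37.6% lower. The log2 changes were -3.19 for FOSL1 (SE 0.085, limma adjusted p = 7.76e-11), 1.41 for JUNB (SE 0.072, adjusted p = 6.00e-09), 1.22 for ATF3 (SE 0.073, adjusted p = 2.04e-08) and 1.05 for DUSP1 (SE 0.095, adjusted p = 7.70e-07). JUND changed by 0.75, IER3 by -0.57, JUN by -0.47 and FOSL2 by 0.25, with limma adjusted p-values of 0.00594 for FOSL2 and smaller for the rest. FOS and EGR1 were lower in 8 of 8 lines (2-sided exact sign-flip p = 0.00781, unadjusted, the smallest possible). FOSL2 in PAR was again the exception, with a fall of 0.24.

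Several members have more than 1 transcript, and the division of TPM among overlapping transcripts is the one made by the authors' quantification. FOSL1-201 carried 72.3% ± 2.76 (SD, n = 10) of FOSL1 untreated and 61.4% ± 6.24 with E, and FOSL1-203 carried 15.4% ± 2.45 and 16.6% ± 6.49. FOSL1-201 fell from a median of 168 TPM to 11.03 TPM. ATF3 came from ATF3-202, with 61.4% ± 11.1 untreated and 70.8% ± 9.97 with E, and ATF3-210, with 33.5% ± 12.1 and 21.5% ± 9.86. JUND-201 rose from a median of 81.3 to 147 TPM with E and had a median of 138 TPM with EA. JUND-202 had medians of 35.9 TPM untreated, 46.6 TPM with E and 69.2 TPM with EA, and ranged up to 153 TPM with EA. The 2 transcripts thus moved in opposite directions from E to EA, which the small change of the gene does not show. FOS-201 carried between 49.9% and 95.1% of FOS untreated, and between 10.6% and 100% in the E libraries with any FOS. JUN, JUNB, EGR1 and DUSP1 have 1 transcript each, so their values do not depend on such a division.

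The genes most like each member over the 29 libraries were looked up by Pearson's r of log2(TPM + 1). The libraries share 10 lines and fall into 3 treatments, r was not computed within treatments, and it is given as a description. FOSL1 was most like TGM2 (r = 0.995), ODC1 (0.993) and PHLDA1 (0.992). JUNB was most like SOX4 (r = 0.993), CDKN2B (0.990) and KRT7 (0.988). IER3 followed CCND1 (r = 0.960), STC2 (0.948) and MYEOV (0.937), and DUSP1 followed ZSWIM4 (r = 0.979), AOPEP (0.978) and C15orf48 (0.976). For JUN the likest were SLC2A4RG (r = 0.959), UNKL (0.958) and RRBP1 (0.942). FOSL2 was most like HLA-F (r = 0.908), RBP5 (0.894) and SLC38A10 (0.888). JUND was likest to MYADM (r = 0.934), ELF4 (0.928) and MLXIP (0.926), and ATF3 to PIP4K2C (r = 0.924), TM4SF1 (0.913) and ITGAM (0.906).

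Among 18 other genes of the wider AP-1 family, 13 were in the fit, and with E 6 of them rose, 3 fell and 4 did not pass. Here and for the lists that follow, the shares over all genes tested were 36.6% higher and 42.6% lower. The median log2 change of the 13 was 0.06, beside -0.04 for all genes. MAFF, a small MAF protein, fell from 26.3 ± 2.64 to 8.35 ± 1.78 TPM (SD, n = 10; log2 change -1.57, limma adjusted p = 5.00e-09). Its relative MAFK rose from 29.6 ± 9.41 to 54.2 ± 2.68 TPM (0.89, adjusted p = 3.00e-07). JDP2, a repressor that dimerizes with JUN, rose from 54.8 ± 5.64 to 96.0 ± 10.2 TPM (0.80, limma adjusted p = 8.71e-11).

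Of 29 other immediate early genes, 20 were in the fit, and 10 rose, 9 fell and 1 did not pass, beside 36.6% higher and 42.6% lower over all genes, with a median of 0.03. PHLDA1, an early target of growth factor signals, fell from 29.04 ± 1.93 to 2.22 ± 0.502 TPM (SD, n = 10; log2 change -3.24, limma adjusted p = 2.04e-13). SGK1, a kinase induced by serum and glucocorticoids, rose from 17.4 ± 3.55 to 63.0 ± 10.7 TPM, a log2 change of 1.80 (limma adjusted p = 1.41e-11). GADD45B, a stress gene that acts on MAP kinase cascades, rose from 20.5 ± 3.10 to 68.8 ± 9.60 TPM, a log2 change of 1.70 (limma adjusted p = 5.98e-12).

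Of 9 other MAP kinase phosphatases, 4 were in the fit, and 2 rose and 2 fell. DUSP4, a nuclear phosphatase that ERK induces, fell from 51.0 ± 2.87 to 8.999 ± 0.955 TPM (log2 change -2.38, limma adjusted p = 7.22e-14). DUSP7 fell from 19.0 ± 2.76 to 6.66 ± 0.931 TPM, while DUSP10, which acts on p38 and JNK, rose from 9.44 ± 2.16 to 26.7 ± 2.82 TPM (1.43, limma adjusted p = 1.29e-10). The other 5 had means under 10 TPM over the 29 libraries and were not tested. DUSP5 and DUSP6, whose products act on ERK, had medians of 19.5 and 13.8 TPM untreated and of 3.33 and 0.680 TPM with E. DUSP2 and DUSP9 had medians of 5.66 and 1.12 TPM untreated and of 1.10 and 0.370 TPM with E. DUSP8 went the other way, from a median of 2.76 TPM to 8.24 TPM. The ranges with and without E did not overlap for any of these 5, and over the genes in the fit this held for 36.5%.

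Among 17 upstream kinases and SRF partners, all in the fit, 6 rose, 10 fell and 1 did not pass, beside 36.6% higher and 42.6% lower over all genes, with a median of -0.26. SRF, the factor that binds the CArG box, rose from 21.6 ± 0.826 to 33.6 ± 2.52 TPM (log2 change 0.61, limma adjusted p = 4.41e-09). Its coactivator MRTFA rose from 30.9 ± 5.01 to 65.7 ± 6.99 TPM, and MAPK9, which encodes JNK2, fell from 50.2 ± 5.15 to 30.0 ± 2.49 TPM.

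A list of 25 genes known as AP-1 targets had 18 in the fit, of which 13 fell, 4 rose and 1 did not pass, beside 42.6% lower and 36.6% higher over all genes. The median log2 change was -0.63. CD44, an adhesion receptor, fell from 909 ± 55.0 to 215 ± 25.3 TPM (log2 change -2.08, limma adjusted p = 8.13e-15). KRT17 rose in 10 of 10 lines, from a median of 27.1 to 292 TPM, and 1 line reached 1354 TPM with E. MMP14, a membrane-bound matrix protease, rose from 32.0 ± 5.04 to 125 ± 12.2 TPM (1.94, limma adjusted p = 1.27e-11).

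**Figure D5:**
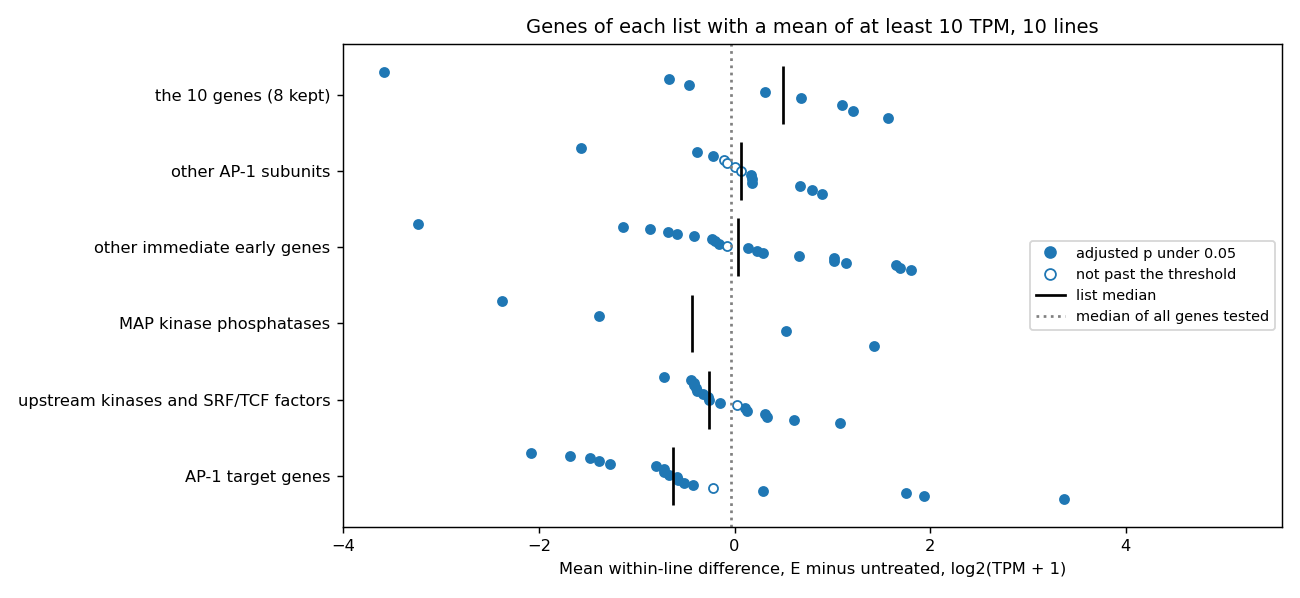
Mean within-line difference in log2(TPM + 1), E minus untreated (horizontal axis), for each gene with a mean of at least 10 TPM in the lists named on the vertical axis, over 10 lines. Filled points passed the adjusted threshold, open points did not, the black bar is the median of the list and the dotted line is the median of all genes tested, -0.04. FOSL1 at -3.58 and PHLDA1 at -3.24 lie far to the left, and the AP-1 target genes have a median of -0.63.

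With EA against E, none of these lists had a gene past the threshold. At an unadjusted p under 0.05 in limma there were 1 of 13 other AP-1 genes, 7 of 20 immediate early genes, 0 of 4 phosphatases, 3 of 17 kinases and SRF partners and 4 of 18 targets, where 20.9% of all genes tested were under it. With EA against untreated, 6 of 13 other AP-1 genes rose and 2 fell, 8 of 20 immediate early genes rose and 8 fell, and 4 of 18 target genes rose and 14 fell. Over all genes 33.1% were higher and 37.6% lower in that comparison.

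Markers of cell identity and stress moved beside these genes. Of 5 epithelial markers, 2 rose and 3 fell with E (36.6% and 42.6% over all genes), and their summed median level was 5391 TPM untreated and 4679 TPM with E. CDH1 rose (log2 change 0.67, limma adjusted p = 1.88e-09), KRT18 fell (-0.64, adjusted p = 3.35e-11) and EPCAM fell (-0.44, adjusted p = 1.48e-09). Of 5 markers of other cell types, COL1A1 rose (1.03, limma adjusted p = 3.69e-09) and CD68 fell (-0.69, adjusted p = 3.64e-07), while PTPRC, DCN and PECAM1 had means under 10 TPM and were not tested. PECAM1 lay between 4.99 and 9.60 TPM untreated (median 6.27) and between 1.03 and 3.84 TPM with E (median 2.06), without overlap. The summed median of these 5 was 88.6 TPM untreated and 87.5 TPM with E. None of the 4 alveolar markers was in the fit, and NAPSA was the most abundant.

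All 5 heat shock genes fell with E, where 42.6% of all genes were lower, with a median log2 change of -0.81. HSPA8, a constitutive chaperone, fell from 1436 ± 53.4 to 769 ± 41.4 TPM (SD, n = 10; log2 change -0.90, limma adjusted p = 5.20e-13). HSPA1A (-0.86) and HSPH1 (-0.81) fell as well, and HSPA1A is uncertain because its near-identical copy HSPA1B can share its reads. The part of these markers in the changes of the 10 genes was not tested. With EA against E, 0 genes of the epithelial, other cell type and heat shock lists were called by limma, and 0 of 5, 1 of 2 and 2 of 5 tested had an unadjusted p under 0.05, beside 20.9% of all genes.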

How the data were processed

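Polyadenylated RNA of 29 libraries was sequenced. The authors deposited TPM per transcript, quantified with kallisto (GRCh38) by the submitters' processing notes; versions, annotation release and strand handling are not given in the sources used here. Since TPM keeps no depth, precision came from the spread between lines, each with 1 library per treatment, and p-values measure that spread, which may be technical.

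Of 188753 transcripts, 169797 were matched to the primary assembly of GENCODE release 29, 15315 lying outside it (alternate haplotypes and patches) were added by their gene symbol, and 3641 were not matched. Matched transcripts made up 98.9% to 99.2% of each library's TPM. The addition was chosen after seeing that IER3 was listed near 0 without it.

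The fit used the 9241 genes whose mean over the 29 libraries reached 10 TPM. Values were log2(TPM + 1), a scale that understates changes of low genes. limma 3.58.1 in R 4.3.3 (lmFit, eBayes with trend, line as block, Benjamini-Hochberg) was used. Libraries of the same line were paired by that block. FOS and EGR1 were tested by exact sign flips of within-line differences. The steps were tested on simulated data. Tables and figures were made with Python 3.11.15, pandas 2.3.3, numpy 2.4.6 and matplotlib 3.10.9. Promoter windows are RefSeq's.

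The members and lists were chosen with earlier results of these data known, and the lists were written from general knowledge. Named genes were the members, in each list up to 3 genes with the largest change among those past the threshold and moving the same way in every line, and for each member the 3 genes most correlated with it. The 5 untested phosphatases and PECAM1 were named after their values were seen. Alternatives were another pseudocount, other filters on low values, median centring, quantile normalization, no block, no trend, KD added, only 8 lines, protein-coding or primary-assembly transcripts only, and leaving out each line.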

Additional observations from a re-analysis of the deposited data

Results flagged for a closer look

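Levels of each gene in each treatment, and within-line differences in each comparison, were screened for a single line far from the others (Dixon's criterion). Of 60 such groups, 13 held one, and chance gives about 1 in 20. No share over all genes is given for this screen, so the count does not set the members apart. The groups share libraries and are not independent.

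PAR was the line that stood out in 8 of the 13 groups. Over all 9241 genes, PAR lay outside the range of the other lines in 53.8% untreated, 53.3% with E and 52.1% with EA. By its change from untreated to E it lay outside in 42.6%. IER3 was at 164 TPM untreated, 67.2 TPM with E and 76.6 TPM with EA, in each case the lowest, and its difference between E and untreated was -1.27. FOSL2 was at 39.5 TPM with E, with differences from untreated of -0.38 with E and -0.24 with EA. DUSP1 was at 13.001 TPM with EA.

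Y643F stood out in EGR1, at 5.04 TPM untreated, with a difference of -2.21 for E against untreated and of 0.70 for EA against E. The level of FOS in KD with E, 3.26 TPM, was far above the next highest, 1.35 TPM. Of it, 2.04 TPM stood on 1 transcript, FOS-210, so this level depends on how TPM was divided among transcripts. JUN in Y821F differed by -0.85 between EA and untreated. All of these are single libraries.

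Lines also moved in opposite directions. FOSL2 changed by -0.38 with E in PAR and upwards in all 9 other lines. FOSL1 changed by -0.65 with EA against E in KD and upwards in all 8 lines of that comparison. Neither difference between lines was tested.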

How the results depend on the processing

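Every member kept its direction and its side of the threshold in E against untreated (202 recomputed values) and in EA against untreated (172), under all alternatives that gave a value. In EA against E, 180 of 182 did so. The exceptions were FOSL1, whose change of 0.33 passed the threshold when only protein-coding transcripts were summed (adjusted p = 0.0382; its own values were the same and 8103 genes were tested), and EGR1, whose mean change was -0.013 without Y643F and up to 0.12 without another line. The EGR1 difference was 0.70 in Y643F and lay between -0.24 and 0.13 in the other lines of that comparison. Why Y643F differed was not tested. The number of genes called in EA against E, 234, was 70 with a mean of at least 1 TPM, 24 with no filter, 9 without the line block, 155 with KD included, 383 with protein-coding transcripts only, and between 10 and 210 when 1 line was left out. The other counts stayed within 1.5 times of the value reported. With primary-assembly transcripts only, an alternative added after seeing the data, IER3 fell under the filter and gave no value. Levels near 1 TPM, as for FOS and EGR1, rest on an unknown number of reads.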
